A study of Gallus gallus with 6 samples.

Results

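Matrix metalloproteinases (MMPs), ADAMs, ADAMTS proteinases with their ADAMTS-like relatives (ADAMTSL), and the inhibitors TIMP and RECK were examined in chick forelimb bud tissue around a bead that carried fibroblast growth factor 2 (FGF2) or none. A gene was included when a probe set of the array carried its symbol alone in the platform annotation and the symbol belonged to one of these families. Where several probe sets named a gene, the one with the highest mean over the 6 arrays stood for it. This gave 47 genes, with 116 probe sets, of 13009 genes measured on 38439 probe sets. By role they were 9 secreted MMPs, 4 membrane-anchored MMPs, 11 ADAMs, 17 ADAMTS proteinases, 2 ADAMTSL proteins and 4 inhibitors. MMP11 and MMP14 lacked a probe set that named them alone and were not analysed here.

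These enzymes share a zinc-dependent catalytic domain and are mostly made as inactive proenzymes. MMPs cut collagens, gelatins and other matrix proteins, membrane-anchored ADAMs release the outer parts of growth factors, adhesion proteins and Notch pathway proteins from the cell surface, and ADAMTS proteinases cut proteoglycans and procollagens in the matrix. TIMPs block the catalytic site, and RECK is a membrane-anchored inhibitor. In the limb bud, turnover of the hyaluronan and versican matrix between mesenchymal cells accompanies outgrowth, cartilage condensation and, in mouse, the regression of the webs between digits.

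The beads had been soaked in FGF2 or, for the control group, in phosphate-buffered saline (PBS), and were set in the posterior mesoderm of the forelimb bud of chick embryos at Hamburger-Hamilton (HH) stage 23, about 500 µm from the tip. Tissue around the bead was taken 24 h later, at HH stage 25. There were 3 arrays per group, PBS replicates 1 to 3 and FGF2 replicates 1 to 3, each of RNA pooled from several embryos, in experiments repeated on separate days, and p-values therefore measure the spread between pools. Both groups carried a bead and its implantation wound, and no tissue without a bead was measured. The comparison asks which genes respond to prolonged FGF exposure in tissue where FGF is used to bring on SHH, the signal of the posterior limb.

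Values are log2 levels, and differences are FGF2 minus PBS on the log2 scale with the moderated standard error (SE) of limma. Array medians were 4.75 to 4.81. Across probe sets, which are not independent replicates, arrays of the same group correlated at 0.9976 to 0.9988 and arrays of different groups at 0.9962 to 0.9981 (Pearson). Precision is limited by the number of arrays. Of 38439 probe sets, 4 passed an adjusted p of 0.05, 3 higher and 1 lower. Probe sets for sequences of other organisms, mostly viral, had a 95th percentile of 3.57, and a gene with a mean under that level is called near background here. All 6 markers of limb mesenchyme (PRRX1, TBX5, TWIST1, HAND2, LMX1B and PDGFRA) had means over 3.57 in both groups, and their median difference was 0.03. Of the 6, 4 lay above 0 and 2 below. They ran from TBX5, 0.16 ± 0.097 SE lower without overlap, to HAND2, 0.34 ± 0.157 SE higher with overlapping groups (adjusted p = 0.644 and 0.611).

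None of the 47 genes passed an adjusted p of 0.05 in limma, against 1 of 13009 genes (0.00769%) in the whole table. Of the 47, 35 had a log2 difference below 0 (74.5%, against 54.4% of all genes), and 34 to 37 did when the arrays were rescaled by quantile normalization again, median centring or cyclic loess. Above background, 27 of 37 lay below 0 (73.0%, against 43.4% of all genes above background). The median over the 47 genes was -0.09, against -0.01 over all genes. At an unadjusted p of 0.05, the threshold of the study's methods, 8 of 47 were lower around FGF2 beads (17.0%), against 4.59% of all genes, and 1 was higher (2.13%), against 7.77% of all genes. With quantile normalization again the counts were 7 lower and 1 higher, against 5.57% and 5.50% of all genes. The genes that were lower at this threshold were ADAMTSL1, ADAMTS5, ADAMTS15, ADAMTS3, MMP16, TIMP3, RECK and ADAM8, and the gene that was higher was MMP17.

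The 3 FGF2 values lay wholly below the 3 PBS values in 9 of 47 genes (19.1%), against 6.84% of all genes, and wholly above in 1 (2.13%), against 9.13% of all genes. The 9 genes were ADAMTSL1, ADAMTS5, ADAMTS3, ADAM32, MMP16, TIMP3, RECK, ADAMTS13 and ADAM8. With 3 arrays against 3, an exact permutation test of a single gene cannot give a two-sided p under 0.1. Without FGF2 replicate 2, which was the lowest array for 8 of these 9 genes, the count at an unadjusted p of 0.05 was 5 rather than 9, namely MMP16, MMP17, ADAMTS3, ADAMTS5 and ADAMTSL1 (10.6%, against 7.20% of all genes). It was also 5 without FGF2 replicate 1, namely MMP16, MMP17, ADAM19, ADAMTS5 and ADAMTS15 (10.6%, against 12.7% of all genes). These counts and shares join both directions. Without FGF2 replicate 2, 4 of 47 genes were lower, against 347 of 13009 genes, and 1 was higher, against 590. Without FGF2 replicate 1, the joint share was no higher than that of all genes, and of its 5 genes all but MMP17 were lower. A joint share does not compare genes by direction, so it does not show whether lower genes remained more frequent than among all genes.

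**Figure D1:**
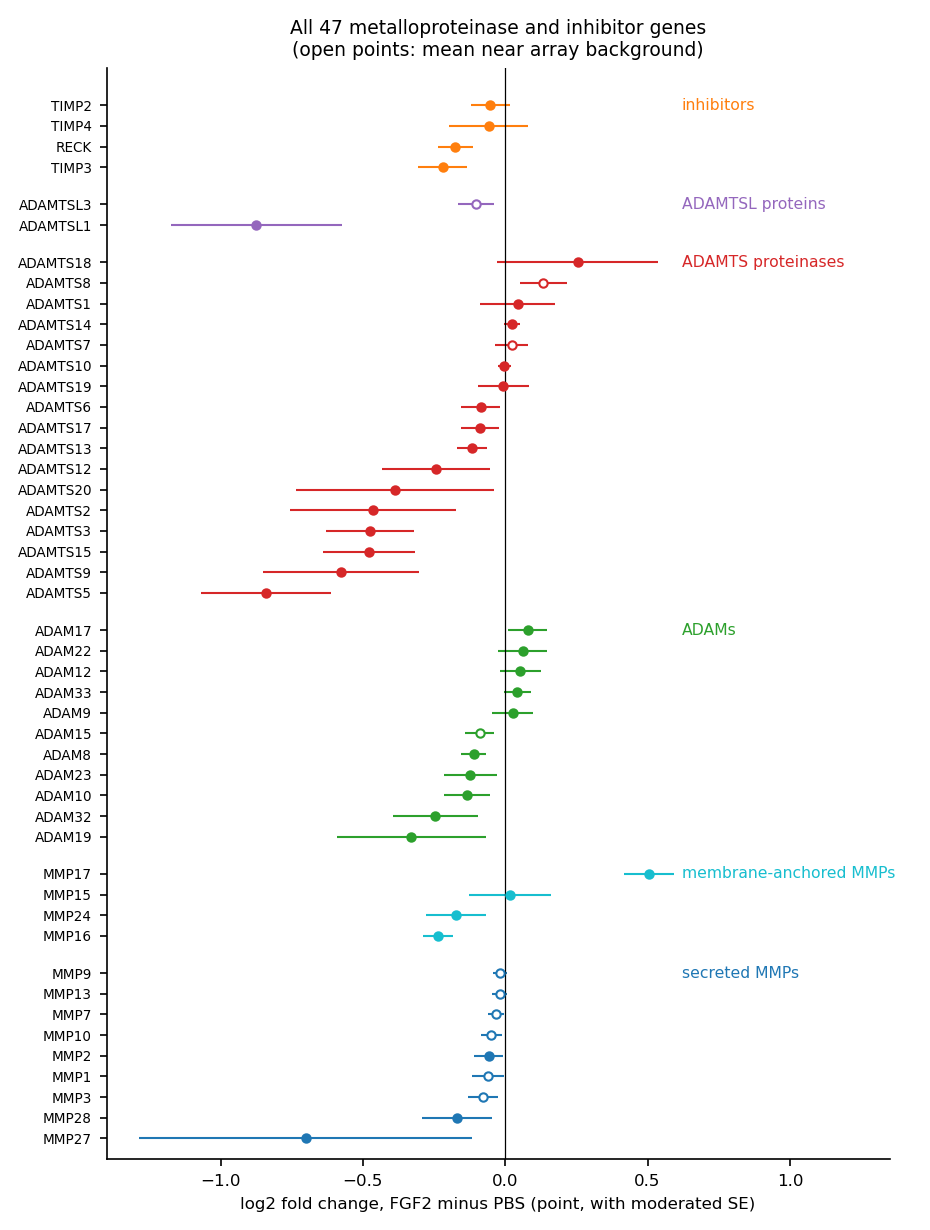
Log2 difference (FGF2 minus PBS, horizontal axis) of the 47 genes, grouped by role, each point with its moderated SE and open points marking the 10 genes near background. Most points of the ADAMTS, ADAMTSL and inhibitor groups lie left of 0, with ADAMTSL1 and ADAMTS5 at -0.87 and -0.84, and MMP17 lies farthest to the right at 0.51.

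Among the membrane-anchored MMPs, MMP17 and MMP16 differed in opposite directions, while MMP15 and MMP24 overlapped between the groups. MMP17 (Entrez Gene 416801), held in the membrane by a lipid anchor, had values of 8.001, 7.82 and 8.11 in PBS replicates 1, 2 and 3 and of 8.39, 8.55 and 8.51 in FGF2 replicates 1, 2 and 3. Every FGF2 array was above every PBS array, and the difference was 0.51 ± 0.088 SE, a 1.42-fold higher level (adjusted p = 0.294). The study names MMP17 from these same arrays, so its direction is not independent evidence. Its further probe set was 0.40 higher, again without overlap (adjusted p = 0.46).

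MMP16 (Entrez Gene 396116), a transmembrane MMP that can activate the proenzyme of MMP2, measured 9.05, 9.01 and 8.96 on the PBS arrays and 8.74, 8.71 and 8.86 on the FGF2 arrays. All FGF2 arrays were lower, FGF2 replicate 3 by the narrowest margin, and the difference was -0.24 ± 0.051 SE (1.18-fold lower; adjusted p = 0.351). A further probe set above background gave -0.23, again without overlap. MMP15 (Entrez Gene 415629), another transmembrane MMP, measured 11.12, 11.40 and 11.47 on the PBS arrays and 11.54, 11.38 and 11.12 on the FGF2 arrays. The groups covered the same range, with a difference of 0.02 ± 0.143 SE and a 95% interval of -0.34 to 0.38. MMP24, the fourth of this group, gave -0.17 ± 0.105 SE.

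The secreted MMPs showed little difference where they were measured above background. Of 9, 6 were near background (MMP1, MMP3, MMP7, MMP9, MMP10 and MMP13), among them the interstitial collagenases MMP1 and MMP13, the stromelysins MMP3 and MMP10, and the gelatinase MMP9. All 9 had differences below 0, 7 of 9 with quantile normalization again or cyclic loess, and none reached an unadjusted p of 0.05 or separated the groups. Of all genes 54.4% lay below 0, and of those above background 43.4%, so genes near background lay below 0 more often. The shared sign of the 6 dim MMPs is therefore not particular to them. MMP9 measured 2.19, 2.21 and 2.18 on the PBS arrays and 2.20, 2.16 and 2.16 on the FGF2 arrays. MMP13 measured 2.56, 2.57 and 2.56 on the PBS arrays and 2.57, 2.51 and 2.55 on the FGF2 arrays. Such genes were not well above background in either group, and of 10 genes near background 8 had their lowest value in FGF2 replicate 2, as did 75.2% of all near-background genes.

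MMP2 (Entrez Gene 386583), the gelatinase of mesenchymal tissues, measured 14.28, 14.20 and 14.20 on the PBS arrays and 14.08, 14.20 and 14.23 on the FGF2 arrays. The groups overlapped, and the 95% interval of the difference of -0.06 ± 0.050 SE ran from -0.19 to 0.07. MMP27, named after its values were seen, measured 4.05, 6.11 and 4.14 on the PBS arrays and 4.14, 3.92 and 4.14 on the FGF2 arrays. Its difference of -0.70 rests on PBS replicate 2, the only array that stood apart, and was -0.03 without it. MMP28, or epilysin, gave -0.17 ± 0.122 SE with overlapping groups. MMP13, MMP10, MMP3, MMP1, MMP27 and MMP7 follow one another in the RefSeq order of protein-coding genes of the chicken GRCg7b assembly, and MMP27 was the only gene of this cluster with a mean above background.

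The ADAMs lay on both sides of 0, 6 of 11 below and 5 above, and 8 and 7 of 11 lay below 0 with quantile normalization again and cyclic loess. ADAM10 (Entrez Gene 374113), which sheds Notch receptors, Notch ligands and ephrins, measured 12.29, 12.27 and 12.04 on the PBS arrays and 12.00, 12.05 and 12.15 on the FGF2 arrays. The groups overlapped, with a difference of -0.13 ± 0.081 SE. ADAM17 (Entrez Gene 421931), the main sheddase of EGF receptor ligands and tumor necrosis factor in mammals, measured 10.14, 10.31 and 10.36 on the PBS arrays and 10.33, 10.41 and 10.30 on the FGF2 arrays. These overlapped as well, with a difference of 0.08 ± 0.068 SE and a 95% interval of -0.09 to 0.25.

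ADAM12 (Entrez Gene 425843), an ADAM of myogenic and other mesenchymal cells, measured 7.70, 7.43 and 7.52 on the PBS arrays and 7.61, 7.59 and 7.62 on the FGF2 arrays. The FGF2 values lay inside the range of the PBS values, the difference was 0.05 ± 0.072 SE, and it was -0.004 with quantile normalization again. The 3 further ADAM12 probe sets above background gave 0.22, 0.22 and 0.50, and in the first and the last of these all FGF2 arrays were above all PBS arrays (adjusted p = 0.64 and 0.50). Among the ADAM12 probe sets above background, the brightest one thus gave the smallest difference.

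ADAM32 measured 6.41, 5.91 and 5.91 on the PBS arrays and 5.87, 5.77 and 5.85 on the FGF2 arrays and was 0.25 lower without overlap. PBS replicate 1 stood above the other arrays, and without it the difference was -0.08. ADAM8, known in mammals from myeloid cells, was 0.11 ± 0.044 SE lower without overlap, with means of 4.47 ± 0.052 in PBS and 4.36 ± 0.058 in FGF2 tissue (SD, n = 3). ADAM19, a sheddase of neuregulins in mouse, gave -0.33 ± 0.263 SE, and from -0.59 without FGF2 replicate 1 to -0.13 without FGF2 replicate 2. ADAM9 and ADAM33 gave 0.03 and 0.04, and ADAM22 and ADAM23, which lack a working catalytic site and act as receptors in the nervous system, gave 0.06 and -0.12, each with overlapping groups.

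ADAMTSL1 and ADAMTS5 were lower around FGF2 beads by 0.87 and 0.84, and ADAMTS15 and ADAMTS3 by 0.48 and 0.47, none of them at an adjusted p of 0.05. Of the 17 ADAMTS proteinases, 12 had differences below 0 and 5 above, with 11 to 14 below 0 under the 3 rescalings, and both ADAMTSL genes lay below 0. ADAMTS5, ADAMTS15 and ADAMTS3 were lower at an unadjusted p under 0.05 (17.6%, against 4.59% of all genes). ADAMTS5, ADAMTS3 and ADAMTS13 were lower without overlap (17.6%, against 6.84% of all genes). ADAMTS8, ADAMTS7 and ADAMTSL3 were near background.

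ADAMTS5 (Entrez Gene 427971) cuts aggrecan and versican, and its loss in mouse delays web regression when a related gene is lost too. It measured 7.02, 6.91 and 7.04 on the PBS arrays and 6.30, 5.65 and 6.51 on the FGF2 arrays. The PBS arrays lay within a narrow band, and each FGF2 array lay below it. The difference was -0.84 ± 0.228 SE, a 1.79-fold lower level (adjusted p = 0.442), and ran from -1.02 without FGF2 replicate 3 to -0.59 without FGF2 replicate 2. Only 1 probe set of the array carried the symbol.

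ADAMTS15 (Entrez Gene 419733), which also cuts versican and aggrecan, measured 9.20, 9.57 and 9.59 on the PBS arrays and 9.22, 8.76 and 8.94 on the FGF2 arrays. PBS replicate 1 lay just under FGF2 replicate 1, so the groups overlapped, and the difference was -0.48 ± 0.161 SE (1.39-fold lower; adjusted p = 0.512). A further probe set gave -0.49 without overlap and another -0.20 with overlap. ADAMTS9, a versican-cutting proteinase that in mouse acts with ADAMTS5 and ADAMTS20 in web regression, was also named after its values were seen. It measured 7.99, 6.93 and 7.67 on the PBS arrays and 6.997, 6.88 and 6.99 on the FGF2 arrays. The FGF2 arrays lay close together and PBS replicate 2 lay among them, and the difference of -0.58 ± 0.274 SE ran from -0.88 without that array to -0.35 without PBS replicate 1.

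ADAMTS20 gave -0.39 ± 0.347 SE, with means of 5.99 ± 0.324 in PBS and 5.60 ± 0.613 in FGF2 tissue (SD, n = 3), and ran from -0.70 without FGF2 replicate 3 to -0.08 without FGF2 replicate 1. ADAMTS1 (Entrez Gene 418479), a further versican-cutting enzyme, measured 7.56, 7.95 and 7.65 on the PBS arrays and 7.93, 7.61 and 7.75 on the FGF2 arrays. The groups covered the same range, with a difference of 0.04 ± 0.132 SE that was -0.01 with quantile normalization again and a 95% interval of -0.29 to 0.38. ADAMTS1 and ADAMTS5 are neighbours in the RefSeq gene order, as are ADAMTS8 and ADAMTS15. Over the 6 genes known to cut versican, aggrecan or related proteoglycans (ADAMTS1, ADAMTS5, ADAMTS8, ADAMTS9, ADAMTS15 and ADAMTS20), 4 lay below 0 and the median was -0.43, against -0.01 over all genes.

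The procollagen N-proteinases, which trim the amino end of fibrillar procollagens, were ADAMTS2, ADAMTS3 and ADAMTS14. ADAMTS3 (Entrez Gene 428760), which also processes the lymphatic growth factor VEGFC in mouse, measured 9.34, 9.23 and 9.06 on the PBS arrays and 8.74, 8.46 and 8.998 on the FGF2 arrays. FGF2 replicate 3 lay only just below the lowest PBS array, and the difference was -0.47 ± 0.154 SE (1.39-fold lower; adjusted p = 0.497). Further probe sets above background gave -0.54 and -0.26 without overlap, and -0.33 with overlapping groups. ADAMTS2 gave -0.46 ± 0.292 SE with overlapping groups, and -0.19 without PBS replicate 3.

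ADAMTS14 gave 0.02 ± 0.028 SE at its brightest probe set, while its other probe set was 0.44 higher without overlap (adjusted p = 0.35). The probe sets of ADAMTS14 shared a sign but differed widely in size. Of the remaining ADAMTS genes, ADAMTS13, the proteinase of von Willebrand factor in blood, was 0.12 ± 0.052 SE lower without overlap at a level close to background (3.83 ± 0.083 in PBS and 3.71 ± 0.048 in FGF2 tissue, SD, n = 3). ADAMTS12 gave -0.24, and -0.06 without PBS replicate 1. ADAMTS18 gave 0.25, which rests on FGF2 replicate 2 at 4.48 and was -0.06 without it. ADAMTS6, ADAMTS10, ADAMTS17 and ADAMTS19 gave -0.09 to -0.004, and these 6 genes all had overlapping groups.

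ADAMTSL1 (Entrez Gene 431603) encodes a secreted matrix protein that resembles the ADAMTS enzymes but lacks their catalytic domain. It measured 10.19, 10.37 and 9.90 on the PBS arrays and 9.38, 8.68 and 9.77 on the FGF2 arrays. All FGF2 arrays were below all PBS arrays, FGF2 replicate 2 by the widest margin and FGF2 replicate 3 only just. The difference was -0.87 ± 0.300 SE, a 1.83-fold lower level (adjusted p = 0.519), and ran from -1.12 without FGF2 replicate 3 to -0.58 without FGF2 replicate 2. Further probe sets above background gave -1.07 without overlap, and -0.52 and -0.37 with overlapping groups.

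**Figure D2:**
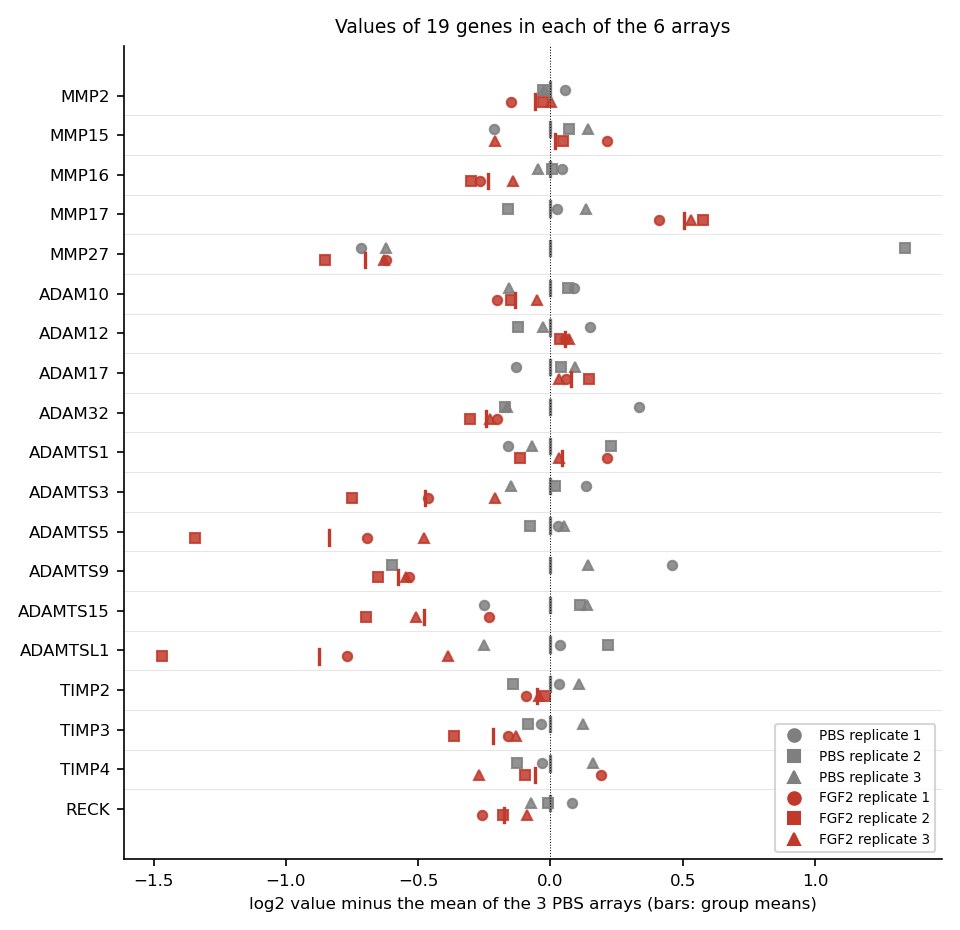
Log2 value of 19 genes in each of the 6 arrays (horizontal axis), less the mean of the 3 PBS arrays of the gene, gray for PBS and red for FGF2, with a marker shape for each replicate number and bars at group means. FGF2 replicate 2 is the lowest point for ADAMTSL1, ADAMTS5 and ADAMTS3, PBS replicate 2 alone sets the gap of MMP27, and the 3 FGF2 points of MMP17 all lie right of the 3 PBS points.

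TIMP3 and RECK, inhibitors with broad targets, were lower around FGF2 beads by 0.22 and 0.18, short of an adjusted p of 0.05, and TIMP2 and TIMP4 overlapped between the groups. All 4 inhibitors had differences below 0, also under the 3 rescalings. TIMP3 and RECK separated the groups (2 of 4, against 6.84% of all genes lower without overlap). TIMP3 (Entrez Gene 396483), which is bound to the matrix and also inhibits ADAMTS5 and ADAM17, measured 12.07, 12.02 and 12.23 on the PBS arrays and 11.95, 11.74 and 11.98 on the FGF2 arrays. The gap between the groups was narrow, and the difference was -0.22 ± 0.086 SE (1.16-fold lower; adjusted p = 0.556). TIMP3 had only 1 probe set. RECK (Entrez Gene 420804), which restrains several MMPs at the cell surface, measured 9.93, 9.84 and 9.77 on the PBS arrays. On the FGF2 arrays it measured 9.58, 9.67 and 9.76. FGF2 replicate 3 nearly met PBS replicate 3, and the difference was -0.18 ± 0.061 SE (1.13-fold lower; adjusted p = 0.527). A further RECK probe set above background gave -0.26 ± 0.162 SE with overlapping groups.

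TIMP2 (Entrez Gene 374178), which inhibits MMPs and also takes part in the activation of MMP2, measured 10.39, 10.21 and 10.46 on the PBS arrays and 10.26, 10.34 and 10.31 on the FGF2 arrays. The FGF2 values lay inside the PBS range, with a difference of -0.05 ± 0.069 SE and a 95% interval of -0.23 to 0.12. TIMP4 (Entrez Gene 768711) measured 8.19, 8.09 and 8.38 on the PBS arrays and 8.41, 8.12 and 7.95 on the FGF2 arrays. Both extremes were FGF2 arrays, and the difference was -0.06 ± 0.138 SE. Without PBS replicate 3 the differences of TIMP2 and TIMP4 were 0.001 and 0.02.

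Where a gene had several probe sets above background, these mostly gave the same sign. This was so for 18 of 21 such genes, and for 35 of the 38 probe sets beside the brightest ones. The exceptions were ADAM22, ADAMTS6 and ADAMTS9, each with 1 probe set of the opposite sign. Probe sets of a gene read the same RNA on the same arrays and are not replicates.

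**Figure D3:**
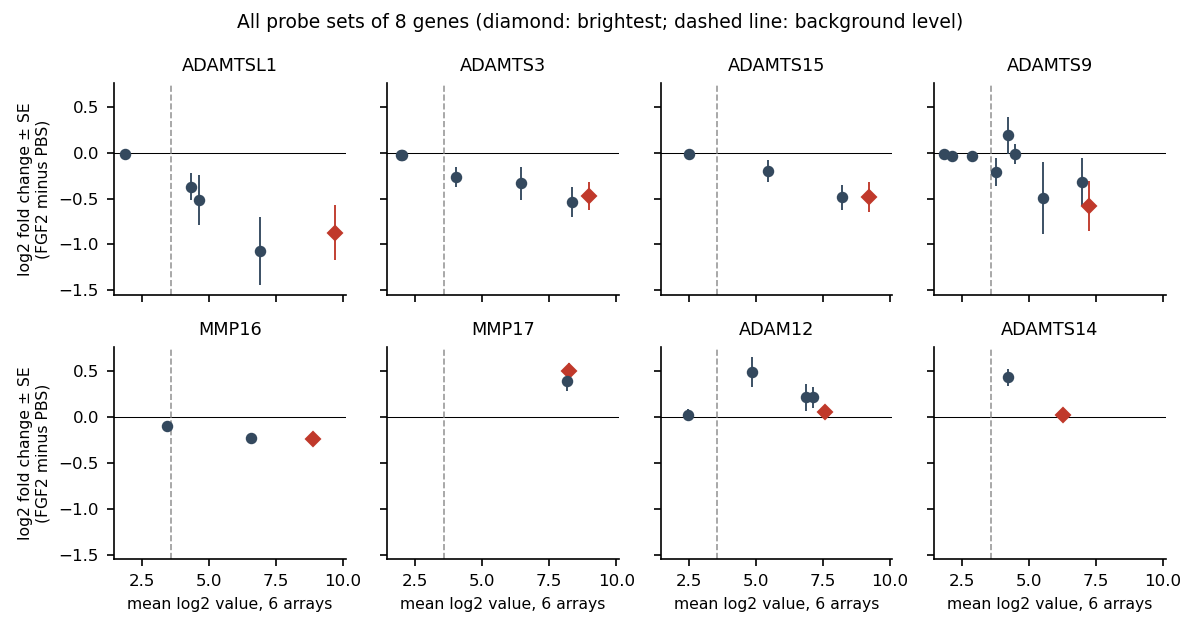
Log2 difference (vertical axis, FGF2 minus PBS, with moderated SE) of every probe set of 8 genes against its mean log2 value over 6 arrays (horizontal axis), with red diamonds for the brightest probe set of each gene and a dashed line at the background level of 3.57. All probe sets of ADAMTSL1, ADAMTS3, ADAMTS15 and MMP16 that lie right of the line are below 0 and both of MMP17 are above 0. Those of ADAMTSL1 differ in size, from -1.07 to -0.37. Right of the line, those of ADAM12 and ADAMTS14 are above 0 and also differ in size, and those of ADAMTS9 differ in sign.

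Muscle, cartilage, macrophage and nerve markers also differed between the arrays. Over the 16 ADAMTS and ADAMTSL genes above background, the median deviation from the PBS mean was -0.21, -0.30 and -0.08 in FGF2 replicates 1, 2 and 3, and -0.02, 0.01 and -0.02 in PBS replicates 1, 2 and 3. For 8 skeletal muscle markers, among them MYOD1, MYF5 and MYOG, it was -0.44, -0.56 and -0.11 in the FGF2 arrays and -0.01, 0.04 and 0.06 in the PBS arrays. Among the FGF2 arrays replicate 2 was the lowest and replicate 3 the highest for both lists. The same order held for the cartilage markers, matrix substrates, plasminogen genes and transcription factors of MMP promoters described below. It did not hold for the mesenchyme, macrophage, endothelium or nerve markers. Nor did it hold for the proprotein convertases, regulators, shed proteins or other matrix proteinases. Over all 47 genes FGF2 replicates 1, 2 and 3 gave -0.01, -0.10 and -0.06, and over the 37 above background -0.13, -0.15 and -0.06. Replicate 2 was also the lowest FGF2 array for the background probe sets, at -0.06, against 0.002 and -0.04 in FGF2 replicates 1 and 3. Of the muscle markers, 3 of 8 were lower at an unadjusted p of 0.05 and none higher, against 4.59% and 7.77% of all genes. These 3 were MYOD1, MYF5 and MYOG. Of the 8, 7 had differences below 0, while PAX3 gave 0.13 ± 0.131 SE with overlapping groups. Their summed linear level was 45755 to 49551 in PBS and 35382 to 46377 in FGF2 arrays. This sum is mostly ACTC1, the brightest marker at a mean of 15.04, which gave -0.24 ± 0.106 SE with overlapping groups.

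For 6 cartilage markers, among them SOX9, COL2A1 and ACAN, the median deviation was -0.70, -0.79 and 0.08 in the FGF2 arrays. In the PBS arrays it was 0.49, -0.46 and 0.05. Of the 6 markers, 5 had differences below 0, while SOX9 was 0.23 ± 0.095 SE higher with overlapping groups. None of these markers had an unadjusted p under 0.05. Their summed linear level was 29151 to 50965 in PBS and 27630 to 39439 in FGF2 arrays. Macrophage markers ran the other way, with 6 of 8 higher at an unadjusted p of 0.05, against 7.77% of all genes. Their summed linear level was 1799 to 2010 in PBS and 2966 to 3511 in FGF2 arrays. This sum is mostly CD74, the brightest macrophage marker at a mean of 10.7, which was 0.60 ± 0.037 SE higher without overlap (adjusted p = 0.053). Of 4 nerve and Schwann cell markers, SOX10 and FOXD3 of neural crest derivatives were 0.78 and 0.64 lower without overlap (adjusted p = 0.612 and 0.509), and the neuronal STMN2 was 5.44-fold higher without overlap (adjusted p = 0.147). The median deviation of the 4 markers was -0.21, -0.40 and -0.27 in the FGF2 arrays and -0.07, 0.25 and -0.23 in the PBS arrays. TUBB3, the remaining marker, gave 0.04 with overlapping groups. The summed linear level of the 4 markers was 1848 to 2759 in FGF2 and 1087 to 1494 in PBS arrays. This higher sum rests on STMN2, with means of 8.16 in PBS and 10.61 in FGF2 tissue, and not on the list as a whole. The part of these cell types in the metalloproteinase differences was not tested, and in tissue RNA of this kind fewer cells of a type and less RNA per cell cannot be told apart. None of the markers in these 4 lists is one of the 47 genes.

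**Figure D4:**
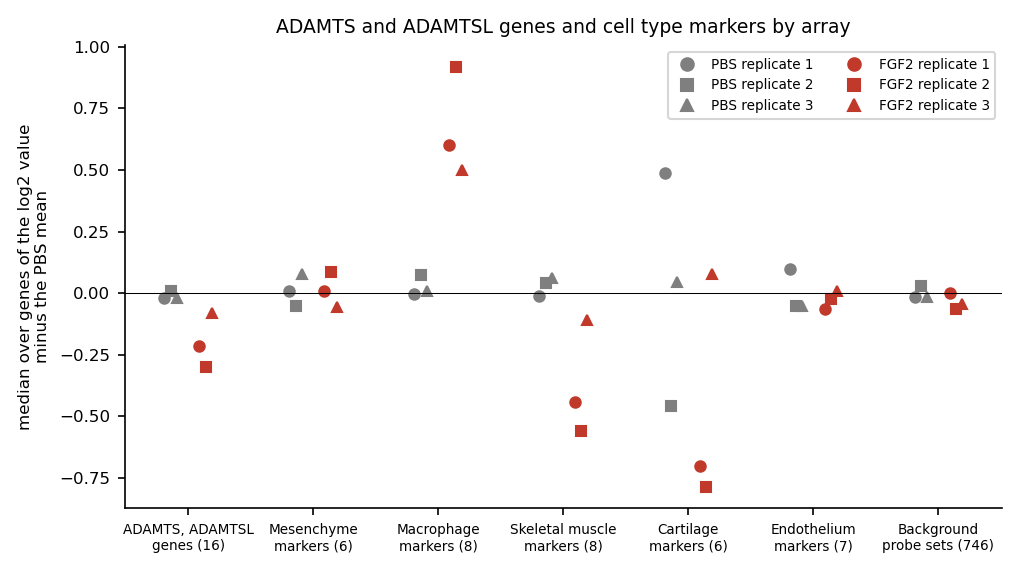
Median over the genes of a list of the log2 value less the PBS mean of each gene (vertical axis), for each of the 6 arrays, for the 16 ADAMTS and ADAMTSL genes above background, 5 lists of cell type markers and 746 background probe sets. The ADAMTS and muscle lists are low in FGF2 replicates 1 and 2 and closer to 0 in FGF2 replicate 3, the cartilage list also spreads among the PBS arrays, and the background probe sets stay within -0.06 to 0.03.

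Other genes that act with these enzymes showed few differences, and none of the genes in these lists passed an adjusted p of 0.05. Of 6 measured genes of the plasminogen system, which activates several proMMPs, all lay below 0 (5 with quantile normalization again), with a median of -0.11 and none at an unadjusted p of 0.05. PLAU, the urokinase plasminogen activator, had means of 8.55 in PBS and 7.95 in FGF2 tissue, a difference of -0.60 ± 0.243 SE with overlapping groups (adjusted p = 0.57). SERPINE2, a serine proteinase inhibitor, gave -0.23.

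Of 12 other matrix proteinases, 3 were higher and 1 lower at an unadjusted p of 0.05, against 7.77% and 4.59% of all genes. Each of these 4 separated the groups, against 9.13% of all genes higher and 6.84% lower without overlap. The lysosomal cysteine proteinase CTSS was 0.91 ± 0.161 SE higher (adjusted p = 0.295), the serine peptidase DPP4 0.74 ± 0.108 SE higher (adjusted p = 0.233), and the tolloid-like proteinase TLL1, a procollagen C-proteinase, 0.50 ± 0.107 SE higher (adjusted p = 0.346). CTSK, the collagen-cutting cathepsin of osteoclasts, was 0.22 ± 0.039 SE lower (adjusted p = 0.296). CTSS is also expressed by macrophages, whose markers were higher in the same arrays, and the part of those cells in its difference was not tested.

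Of 6 proprotein convertases, which cut the propeptides of membrane MMPs, ADAMs and ADAMTS enzymes, PCSK5 was 0.34 lower without overlap. However, 1 of the 3 further PCSK5 probe sets above background gave 0.17. PCSK6 gave 0.31 with overlap, while its further probe set, of nearly the same mean level, gave 0.02. The median over the list was -0.07. Among 16 regulators, RHBDF2, a partner of ADAM17 in its transport, was 0.44 ± 0.135 SE higher without overlap (adjusted p = 0.479). The matrix proteoglycan SPOCK1 and the proteinase trap A2M gave -0.77 and -0.48, and the median was -0.01.

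The substrates of the enzymes showed no difference that passed the test. Of 12 matrix proteins, 11 lay below 0 (10 with cyclic loess) with a median of -0.13, the largest differences being those of ACAN, the aggrecan core protein, at -0.55 ± 0.399 SE and of COL2A1, the cartilage collagen, at -0.45 ± 0.266 SE. Both are also among the cartilage markers. Of 16 proteins shed by ADAM10 or ADAM17, none reached an unadjusted p of 0.05, the median was -0.03, and EFNA5 and DLL1, an ephrin and a Notch ligand, gave -0.22 and 0.19.

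Of 11 transcription factors known to act on MMP promoters, 1 was higher and 1 lower at an unadjusted p of 0.05. The shares of all genes were 7.77% and 4.59%. The higher one was ETS2, at 0.27 with overlapping groups (adjusted p = 0.556), and the lower one was ETV5 at its brightest probe set. The probe sets of ETV5 disagreed, the brightest being 0.19 lower and another 0.18 higher, each without overlap (adjusted p = 0.296 and 0.517), and no direction is given for it. RUNX2, a factor of bone and late cartilage cells, gave -0.70 ± 0.588 SE with overlapping groups. The immediate early factor EGR1 gave 0.67 ± 0.330 SE with overlapping groups at its brightest probe set. A further EGR1 probe set above background was 0.93 ± 0.338 SE higher without overlap (adjusted p = 0.54). The median over this list was -0.02.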

How the data were processed

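RNA from tissue around FGF2 or PBS beads was hybridized to Affymetrix Chicken Genome arrays, 3 per group, assigned by the titles in the labels. The authors deposited 1 table of values, which are on a log2 scale as their range of 0.13 to 15.95 shows (no source used here states the log base). Per the labels and the methods they were made by Robust Multi-array Averaging, which corrects background, equalizes quantiles between arrays and summarizes the probes of a set; equalized quantiles hide a shift shared by most genes, and dim values are compressed. Scanner files were not analysed here, and no further normalization was applied. No column of values was left unassigned.

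The 96 control probe sets were left out of 38535. The platform annotation gave 1 symbol to 27168 of the 38439 tested, several to 177 and none to 11094. Of the 47 genes, 46 were found by gene identifier in the RefSeq table of GRCg7b, all with the same symbol; ADAM32 was not found. No probe set was mapped to a genome, and neither coordinates nor sequences are given. The lmFit and eBayes functions of limma (version 3.58.1, R version 4.3.3) compared FGF2 with PBS, two-sided, without covariates, with Benjamini-Hochberg adjustment over all 38439 probe sets. The script was tested on simulated data. The SE is the moderated one, and intervals are 95%.

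The genes and lists were chosen with earlier results of these data known. Values in all arrays were given for MMP17, the inhibitors, MMP2, MMP9, MMP13, MMP15, MMP16, ADAM10, ADAM17, ADAMTS1 and ADAM12, and for up to 6 genes in each direction with the largest differences among those whose groups did not overlap; of other lists, the 2 with the largest difference. ADAMTS15, ADAMTS9 and MMP27 and the other genes with values were added after their values were seen. The alternatives tried were an adjusted p of 0.1, a block for the replicate number, fits without each array in turn or without both PBS replicate 2 and FGF2 replicate 3, renewed quantile normalization, centring on array medians, cyclic loess, the 19219 brighter probe sets alone, robust fitting with a variance trend, weighted arrays, omission of the 10468 probe sets of classes able to match several transcripts, and averaging the probe sets of each gene.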

Additional observations from a re-analysis of the deposited data

How the results depend on the processing

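None of the 47 genes passed an adjusted p of 0.05 in 15 of 16 alternative fits. With array weights, whose estimation did not converge and which gave FGF2 replicate 3 a weight of 8.45 against 0.27 to 2.25 elsewhere, 1 did (MMP17, 0.45, adjusted p = 0.026), and the median over the 47 genes was -0.052. Only MMP16, MMP17 and ADAMTS5 had an unadjusted p under 0.05 in all 16, and 29 of 47 genes kept their direction in every fit that held them, 14 to 16 each. Among the 29 were MMP3, MMP7, MMP10, ADAM15 and ADAMTSL3, which were near background. The matching counts over all genes are not given here, so these counts cannot be read as many or few. The count of genes at an unadjusted p of 0.05, 9, joins both directions. With a replicate block it was 5 (10.6%, against 11.6% of all genes), and ADAMTSL1 and RECK had unadjusted limma p of 0.060 and 0.093. The 5 were MMP16, MMP17, ADAMTS3, ADAMTS5 and TIMP3. Of these, ADAMTS5 and TIMP3 had a lower unadjusted limma p with the block, 0.0080 and 0.014 against 0.013 and 0.049. The p of MMP16, MMP17 and ADAMTS3 was higher with it. By direction, the block gave 4 of 47 genes lower and 1 higher, against 4.25% and 7.38% of all genes. With 1 array left out the count was 5 to 9 (10.6% to 19.1%, against 7.20% to 14.1% of all genes). No source used here ties the replicate numbers to days. Over all probe sets, same-numbered arrays did not deviate together (correlations -0.25, -0.0019 and -0.18), which does not describe single genes. The count of genes whose groups do not overlap, 10, also joins both directions. It was 11 to 23 with 1 array left out (23.4% to 48.9%, against 19.4% to 45.5% of all genes). Without PBS replicate 2 and FGF2 replicate 3 it was 20 (42.6%, against 41.7%). These joint shares do not separate the directions. Without PBS replicate 1, for instance, 13 of 47 genes were lower and 3 higher, against 11.9% and 11.8% of all genes. Probe sets called in the whole table, 4, were 18 at an adjusted p of 0.1, 1 with the replicate block, 0 to 3 with 1 array left out, 0 without both named arrays, 7 after quantile normalization again, 40 among brighter probe sets, 39 with the variance trend, 2256 with array weights and 7 on gene means. Small differences changed sign. ADAM12 was -0.014 without both arrays and -0.0041 after quantile normalization again, which also gave MMP9 0.0080, MMP13 0.013 and ADAMTS1 -0.011. Cyclic loess gave MMP9 0.012, MMP13 0.013 and MMP15 -0.0068, and array weights MMP15 -0.19. With 1 array left out, MMP15 ran from -0.090 to 0.13, ADAMTS1 from -0.042 to 0.16, ADAM12 from -0.0070 to 0.13, TIMP2 from -0.12 to 0.0015 and TIMP4 from -0.18 to 0.047. The cause of these changes was not tested. For the 10 genes near background, signal limits what can be said.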
